A study of Rattus norvegicus with 2 samples.

Results

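The endothelin system genes in the deposited table of gene expression were *Edn1*, *Edn2* and *Edn3*, which encode the ligands, *Ednra* and *Ednrb*, which encode the receptors, and *Ece1* and *Ece2*, which encode the converting enzymes. They were selected by gene symbol, and each of the 7 symbols matched 1 of the 32662 listed genes. The RNA-seq data hold 2 libraries of rRNA-depleted RNA from the retina of female Long-Evans rats aged 2 months. The CTRL retina had a sham procedure, and the IR12 retina had ischemia-reperfusion (IR) injury and was taken 12 hours after reperfusion. IR is a block of the retinal blood supply followed by its return. Whether the retinas came from separate animals is not given in the sources used here. There is 1 library per condition, so no difference between the libraries has a replicate check, no test or error can be given, and the injury and any other difference between the retinas cannot be told apart.

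Expression is given as FPKM, fragments scaled by transcript length and sequencing depth, so levels of different genes can be compared per length within a library. Differences are log2 ratios of (FPKM + 1), IR12 over CTRL, which makes the change of a low gene look smaller than it is. The tissue label was checked against photoreceptor markers. *Gnat1*, the transducin subunit of rods, had 4027 FPKM in CTRL and 4237 FPKM in IR12, and of the 8 markers used, *Nr2e3* was the lowest, with 27.3 in CTRL and 23.5 in IR12. The libraries stood apart in lens transcripts. All 7 lens markers were lower in IR12 by at least 2-fold on this scale. Of the 13599 genes that reached an FPKM of 1 in either library, 6.12% were at least 2-fold lower. Of the lens markers, *Bfsp2* was above an FPKM of 1 in CTRL alone. Their summed FPKM was 2967 in CTRL and 355 in IR12, led by *Cryba1*, a lens crystallin, with 1614 in CTRL and 196 in IR12.

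Endothelins are short vasoactive peptides that are cut from longer precursors, first by furin-type proteases and then by the endothelin converting enzymes. They act on a pair of G protein-coupled receptors. The A receptor on vascular smooth muscle and pericytes mediates constriction, and the B receptor is found on endothelium, where it clears the peptide and triggers nitric oxide release, and on glia. In the retina, Edn1 is known as a constrictor of vessels. In mouse models of photoreceptor damage, *Edn2* is known as a gene that photoreceptors switch on, and Müller glia, which span the retina, carry the B receptor.

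Of the 7 genes, *Ednrb* and *Edn2* were higher in IR12 by at least 2-fold on the scale of FPKM + 1, 0 were at least 2-fold lower, and the other 5 lay between these limits. Among the 13599 genes that reached an FPKM of 1 in either library, 6.56% were at least 2-fold higher and 6.12% at least 2-fold lower, with a median log2 ratio of 0.02. *Edn3* did not reach the minimum FPKM of 1 in either library. *Edn2* reached it through IR12 alone and was listed at 0 in CTRL, so it had to differ. *Ednrb* was thus the 1 member past the limit with a value above 0 in both libraries.

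**Figure D1:**
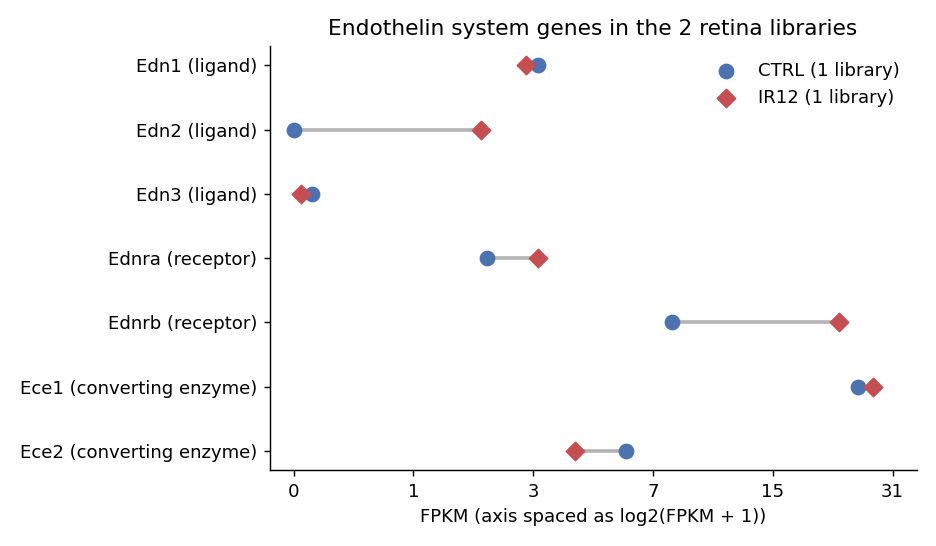
FPKM of the 7 endothelin system genes in CTRL (circles) and IR12 (diamonds), 1 library each, on an axis spaced as log2(FPKM + 1). *Ednrb* moved from 7.93 to 22.4 and *Edn2* from a listed 0 to 1.97, while the points of *Edn1* and *Ece1* lie close together.

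Of the ligands, *Edn1*, the main endothelin of vascular endothelium, had 3.12 FPKM in CTRL and 2.85 FPKM in IR12. Its log2 ratio was -0.10, which lay at the 40.4th percentile of all genes tested, so the level of *Edn1* was close to the same in the 2 libraries as deposited. After both libraries were brought to an equal FPKM sum (the TPM scale), its log2 ratio was 0.38, where the median of all genes tested was 0.59. On that scale 20.7% of all genes tested were at least 2-fold higher and 3.21% at least 2-fold lower, and the members past the limit were again *Ednrb* and *Edn2*. *Edn2*, the ligand linked to photoreceptor injury, was listed at 0 in CTRL and had an FPKM of 1.97 in IR12. No fold is given against a listed 0, which can occur for a gene in use: *Polr2h*, a subunit of RNA polymerase II, was listed at 0 in both libraries. Of the 15396 genes listed at 0 in CTRL, 167 had an FPKM of at least 1 in IR12, which is 1.08%, and 122 had at least the value of *Edn2*. *Hivep3*, the gene listed next to *Edn2* on the chromosome, had 1.31 FPKM in CTRL and 0.700 FPKM in IR12. *Edn3*, a ligand known for its part in neural crest development, had 0.114 FPKM in CTRL and 0.0446 FPKM in IR12.

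The read depth behind these low values can be gauged from the steps of the table. In olfactory receptor genes with a locus of 939 bp, which have no spliced coding sequence, the lowest FPKM above 0 was 0.0881 in CTRL, shared by 4 genes, and 0.0516 in IR12, shared by 14 genes. Read as the worth of 1 read, the step was 1.71 times as high in CTRL, so CTRL is the shallower library by this measure. *Edn3* equalled 1.30 steps in CTRL and 0.864 in IR12, so both values lie near the lowest step and the difference between them was not tested. *Edn2* equalled 38.1 steps in IR12, and *Edn1* equalled 35.4 in CTRL and 55.2 in IR12. The transcript lengths behind the FPKM were not used here, and 1 read in a longer transcript is worth less than a step, so these are a scale and not read counts.

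Shares within a library do not depend on how the libraries are scaled. *Edn1* made up 96.5% of the summed FPKM of the 3 ligands in CTRL and 58.6% in IR12. Most of this difference comes from *Edn2*, listed at 0 in CTRL, since *Edn1* itself had 3.12 and 2.85 FPKM. With 1 added to each FPKM, the share of *Edn1* was 66.1% in CTRL and 49.0% in IR12. *Edn2* made up 40.5% of this sum in IR12, so that *Edn1* remained the most abundant ligand per length in both libraries. *Edn3* made up 3.54% in CTRL and 0.917% in IR12. The summed FPKM of the ligands, which does depend on the scaling, was 3.23 in CTRL and 4.86 in IR12 as deposited.

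Of the receptors, *Ednrb* had 7.93 FPKM in CTRL and 22.4 FPKM in IR12. It was 2.83 times as high in IR12, a log2 ratio of 1.39 at the 96.3rd percentile of all genes tested. Among the 4285 genes with an FPKM in CTRL within 2-fold of that of *Ednrb*, 4.62% were at least 2-fold higher in IR12. The rank of *Ednrb* among genes at FPKM 1 or more in the same library was at percentile 36.2 in CTRL and 62.2 in IR12. On the TPM scale *Ednrb* was 4.43 times as high in IR12, and with the sum of all genes but small non-coding RNAs made equal it was 2.65 times as high. *Ednra* had 2.06 FPKM in CTRL and 3.11 FPKM in IR12, a log2 ratio of 0.43 at percentile 78.8. It was 2.37 times as high in IR12 on the TPM scale, and its log2 ratio after adding 1 was 0.86, where the median of all genes tested was 0.59. Its rank was at percentile 9.72 in CTRL and 16.9 in IR12. The ratio of *Ednrb* to *Ednra* was 3.86 in CTRL and 7.22 in IR12, and *Ednrb* made up 79.4% and 87.8% of the receptor sum. The B receptor gene was therefore the more abundant one per length in both libraries, by a wider margin in IR12.

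**Figure D2:**
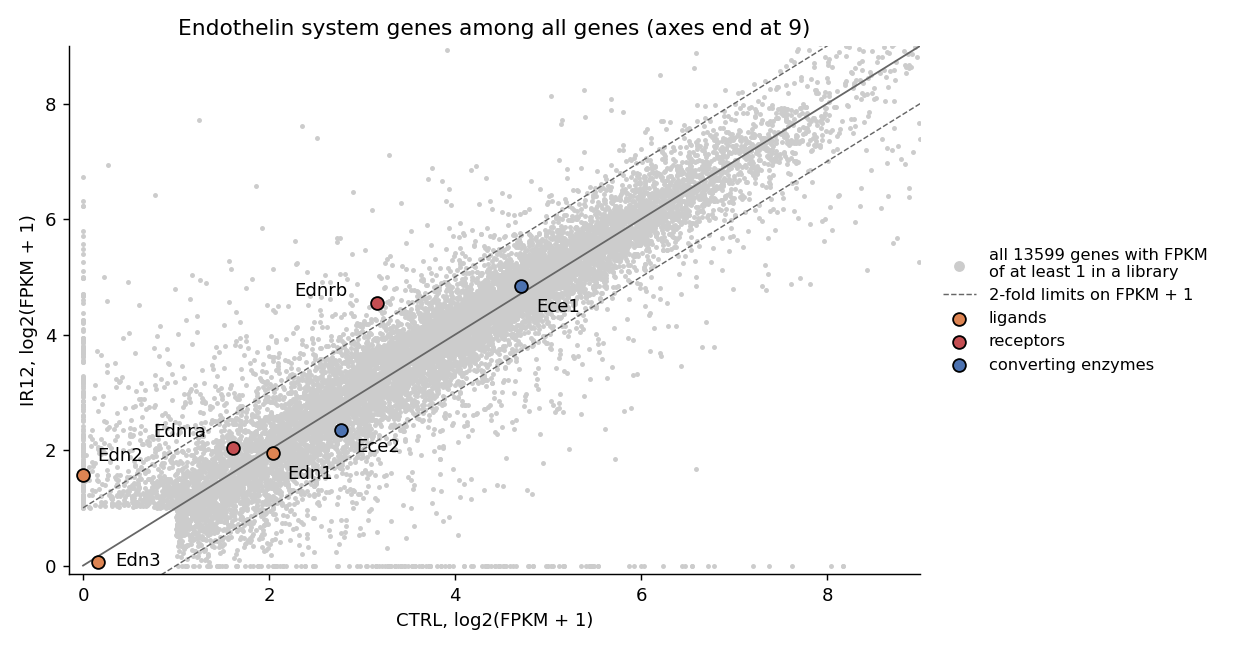
The 13599 genes that reached an FPKM of 1 in either library (grey, those beyond the axis end at 9 not drawn) and the 7 endothelin system genes (coloured by role), as log2(FPKM + 1) in CTRL (x axis) and IR12 (y axis), with dashed lines at 2-fold on this scale. *Ednrb* and *Edn2* lie above the upper line, *Edn2* on the left edge where genes are listed at 0 in CTRL, and the other 5 genes lie between the lines.

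Of the converting enzymes, *Ece1*, which cuts the inactive big endothelins to the active peptides, was the most abundant of the 7 genes, with 25.2 FPKM in CTRL and 27.6 FPKM in IR12. Its log2 ratio was 0.13, at percentile 58.0, and 0.75 on the TPM scale, and its rank in the library was at percentile 66.7 in CTRL and 67.6 in IR12. *Ece2*, a related enzyme of neural and endocrine cells that works at acidic pH, had 5.86 FPKM in CTRL and 4.08 FPKM in IR12. Its log2 ratio was -0.43, at percentile 19.5. It was -0.45 when centred on the median gene and -0.51 with equal sums without small non-coding RNAs. On the TPM scale alone it was above 0, at 0.10, where the median of all genes tested was 0.59. The sign for *Ece2* thus depends on the scaling. The ratio of *Ece1* to *Ece2*, which does not, was 4.30 in CTRL and 6.76 in IR12. The summed FPKM of both enzymes, most of it *Ece1*, was 31.1 in CTRL and 31.7 in IR12 as deposited, and that of the receptors was 9.99 in CTRL and 25.5 in IR12.

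**Figure D3:**
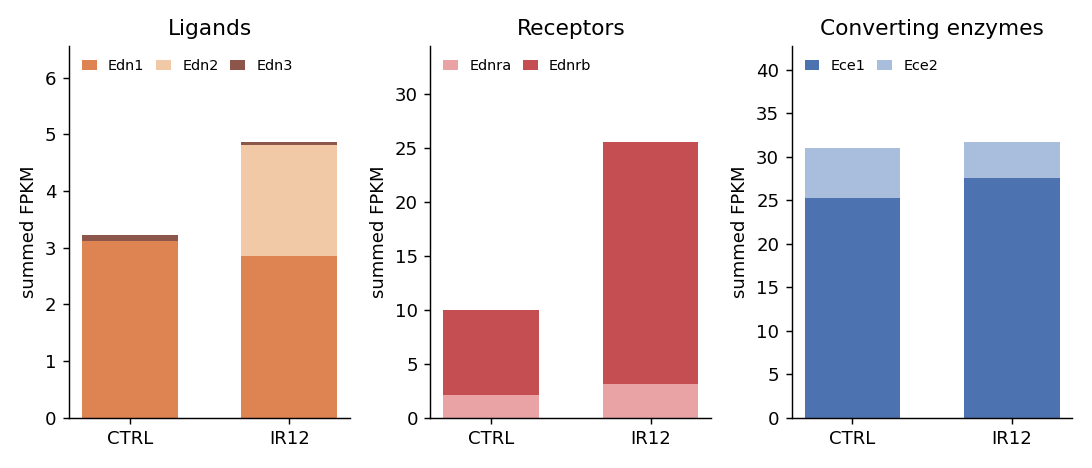
Summed FPKM of the ligands, receptors and converting enzymes in CTRL and IR12, 1 library each, stacked by gene from 0. As deposited, most of the receptor sum is *Ednrb* in both libraries, *Edn2* appears in the ligand sum of IR12, and the sum of the converting enzymes is nearly the same.

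On rn6, the build named in the submitters' processing notes, *Edn1* is listed at chr17:22137324-22143324, *Edn2* at chr5:139100898-139105792 and *Edn3* at chr3:172856733-172880450. The receptor genes are listed at chr19:33928356-33991703 for *Ednra* and chr15:88006977-88036354 for *Ednrb*. *Ece1* lies at chr5:156215417-156318671, on the same chromosome as *Edn2*, and *Ece2* at chr11:83948230-83964055. The identifiers listed are ENSRNOG00000014361 for *Edn1*, ENSRNOG00000009390 for *Edn2*, ENSRNOG00000007477 for *Edn3*, ENSRNOG00000012721 for *Ednra*, ENSRNOG00000010997 for *Ednrb*, ENSRNOG00000014241 for *Ece1* and ENSRNOG00000001715 for *Ece2*. None of the 7 loci overlaps another listed gene, so no listed gene at the same place could share their reads.

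The bases before the start of *Ednrb* and *Edn2* are shown because these were the genes past the 2-fold limit, and those of *Edn1* for comparison, since its level was close to the same. Promoters of 6 of the 7 genes were matched by symbol in RefSeq sequences on GRCr8, a later build than rn6. Each run holds the 250 bases before the annotated start, 5′ to 3′ on the gene's strand, and capitals mark matches to the motifs searched.

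*Ednrb* (GRCr8, chr15:87086766-87087015, minus strand): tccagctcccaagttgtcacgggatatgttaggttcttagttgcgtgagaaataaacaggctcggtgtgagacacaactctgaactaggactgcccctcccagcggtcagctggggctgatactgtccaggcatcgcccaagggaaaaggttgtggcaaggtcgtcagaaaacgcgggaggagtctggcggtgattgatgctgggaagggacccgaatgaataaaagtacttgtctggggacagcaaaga

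*Edn2* (GRCr8, chr5:139036326-139036575, plus strand): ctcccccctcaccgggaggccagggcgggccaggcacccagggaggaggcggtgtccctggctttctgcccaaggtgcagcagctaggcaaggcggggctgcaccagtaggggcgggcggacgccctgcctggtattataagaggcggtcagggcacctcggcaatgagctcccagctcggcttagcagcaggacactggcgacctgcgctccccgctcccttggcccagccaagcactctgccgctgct

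*Edn1* (GRCr8, chr17:22666688-22666937, minus strand): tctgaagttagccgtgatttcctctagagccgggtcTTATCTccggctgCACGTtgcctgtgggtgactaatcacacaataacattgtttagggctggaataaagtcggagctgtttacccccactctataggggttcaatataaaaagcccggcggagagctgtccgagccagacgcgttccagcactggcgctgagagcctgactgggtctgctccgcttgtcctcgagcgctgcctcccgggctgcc

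The motifs, searched on both strands, were TGANTCA for AP-1, ACGTG for the hypoxia factors, TTCNNNGAA for STAT factors and AGATAA for GATA factors. Of the 33469 promoters in the table, cut to the same 250 bases, 6.34% hold TGANTCA, 16.6% ACGTG, 7.67% TTCNNNGAA and 10.3% AGATAA. Among the 6 promoters of the endothelin system, the *Edn1* promoter was the 1 with matches, ACGTG on the opposite strand starting 201 bases before the start and AGATAA on the opposite strand starting 214 bases before it, which do not overlap. In the windows of *Edn2*, *Ednrb*, *Ednra*, *Ece1* and *Ece2* these letters were not found. A match describes letters in a window, not a bound site. The share of G and C was 69.6% in the *Edn2* window, 53.2% in that of *Ednrb* and 56.4% in that of *Edn1*, against a median of 51.2% over all promoters.

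Genes around the endothelin system were described by lists of known roles. Of the 4 furin-type proteases, 0 were past the 2-fold limit in either direction, where 6.56% of all genes tested were higher and 6.12% lower, and their log2 ratios lay between -0.52 and 0.57. *Furin* had 5.10 FPKM in CTRL and 6.79 FPKM in IR12, and *Pcsk7* had 6.40 and 9.99, which is past the limit on the TPM scale. The neprilysin family holds zinc peptidases related to *Ece1*. *Mme*, which encodes neprilysin, an enzyme that breaks down endothelins and other peptides, had 14.3 FPKM in CTRL and 0.795 FPKM in IR12, a log2 ratio of -3.09. *Mmel1*, its closest relative, had 2.54 and 0.662, a log2 ratio of -1.09. Of the 5 relatives, these 2 were at least 2-fold lower and 0 were higher, *Phex* lay between the limits with 1.74 and 1.03, *Ecel1* was under FPKM 1 in both libraries and *Kel* was listed at 0 in both. Both genes past the limit reached the minimum FPKM through CTRL alone, the library where they were high. On the TPM scale with 1 added, *Mme* was still at least 2-fold lower and *Mmel1* was not. For so low a gene as *Mmel1* this depends on the added 1, without which it was 3.83 times as high in CTRL as deposited. The ratio of *Ece1* to *Mme*, a cutting and a degrading enzyme of the same family, was 1.77 in CTRL and 34.7 in IR12. This ratio was not planned. Since *Ece1* was close to the same in both libraries as deposited, it restates the lower value of *Mme*, which was under FPKM 1 in IR12.

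Receptor signalling genes lay between the limits on FPKM as deposited. Of 23 genes matched for G proteins, phospholipase C, inositol trisphosphate receptors, protein kinase C, *Rhoa* and its kinases, receptor kinase and arrestins, 22 were tested and 0 were past 2-fold in either direction, against 6.56% higher and 6.12% lower over all genes tested. Their median log2 ratio was 0.17, against 0.02 over all genes tested. *Gnaq*, the G protein subunit through which both receptors raise calcium, had 41.6 FPKM in CTRL and 46.2 FPKM in IR12. *Gna12*, a G protein subunit that acts on the cytoskeleton, had 8.53 and 16.1, the highest log2 ratio of the list at 0.84. *Itpr1*, a calcium release channel, had 16.4 and 9.19, the lowest at -0.77. On the TPM scale 5 genes of the list, *Gna11*, *Gna12*, *Gnai3*, *Rhoa* and *Rock2*, were at least 2-fold higher, where 20.7% of all genes tested were. Among 10 factors known to act on the *Edn1* gene, 8 were tested and *Fos*, a subunit of AP-1, was the 1 at least 2-fold higher, with 7.40 in CTRL and 21.2 in IR12, where 6.56% of all genes tested were higher. *Jun*, its partner, had 7.24 and 13.5. *Hif1a*, a hypoxia factor regulated mainly at the protein level, had 325 and 337, and *Rela*, an NF-kB subunit, had 6.37 and 13.4. On the TPM scale 5 of the 8 were at least 2-fold higher, against 20.7% of all genes tested.

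Genes of the retinal stress response that is known to accompany *Edn2* after photoreceptor damage were higher. Of 9 genes matched, 8 were higher by at least 2-fold in IR12 and 0 lower, with a median log2 ratio of 2.69, where 6.56% of all genes tested were higher and 6.12% lower. All 9 were at least 2-fold higher on the TPM scale, against 20.7% of all genes tested. *Lif*, a cytokine of Müller glia that acts upstream of *Edn2* in mouse retina, had 0.160 FPKM in CTRL and 6.63 FPKM in IR12. *Stat3*, which carries the signal of this cytokine family, had 17.7 and 120, a log2 ratio of 2.69, and *Socs3*, its feedback inhibitor, had 0.393 and 29.1. *Fgf2*, a photoreceptor survival factor, had 2.13 and 13.9. *Gadd45b* lay between the limits with 4.02 and 7.41. Of the 8 genes past the limit, *Lif*, *Osmr*, *Socs3* and *Bcl3* reached the minimum FPKM through IR12 alone. This list was chosen with a rise of injury genes in these libraries already known, so its direction is not independent evidence.

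**Figure D4:**
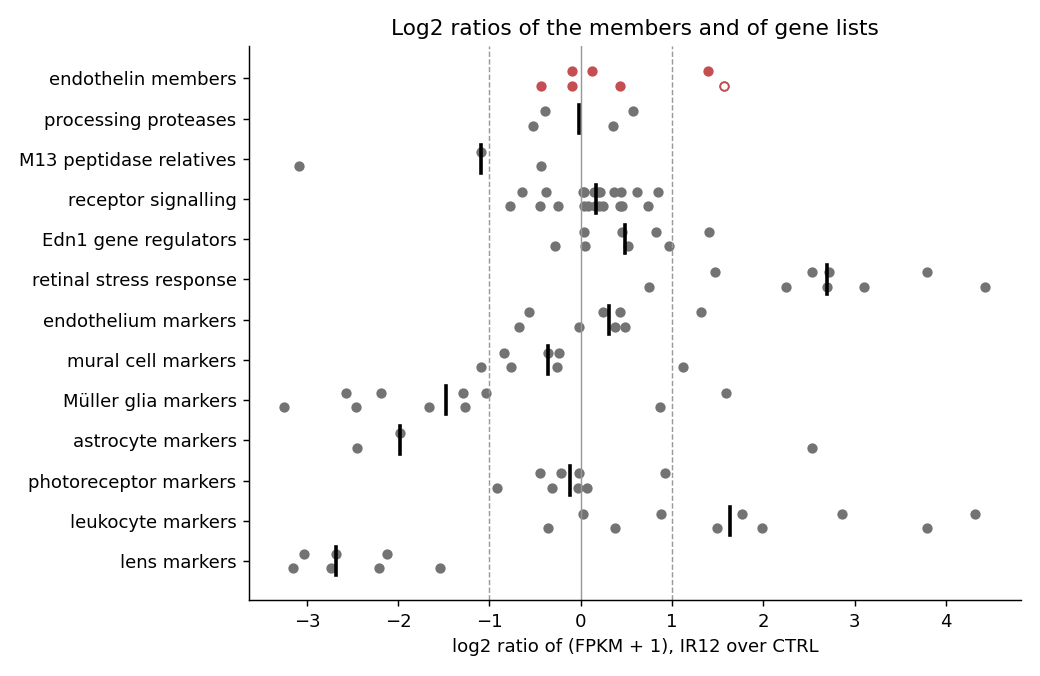
Log2 ratios of (FPKM + 1), IR12 over CTRL, for the 7 endothelin system genes (red, with *Edn2*, listed at 0 in CTRL, as an open circle) and for the tested genes of lists by role or cell type (grey), each list's median as a black bar and 2-fold as dashed lines. Most Müller glia markers and all lens markers lie to the left and the retinal stress response lies to the right, while receptor signalling genes lie between the limits on FPKM as deposited, which 5 of them pass on the TPM scale.

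In bulk tissue, fewer cells of a type and less RNA per cell cannot be told apart, so markers of the cells that can express these genes are given beside them. Müller glia markers were mostly lower while *Ednrb* was higher. Of 10 markers, 8 were lower by at least 2-fold in IR12 and 1 was higher, with a median log2 ratio of -1.48, and none was at 0. Over all genes tested the shares were 6.12% lower and 6.56% higher. Of these 8, *Kcnj10* reached the minimum FPKM through CTRL alone. *Glul*, the glutamine synthetase of these glia, had 754 FPKM in CTRL and 126 FPKM in IR12. *Aqp4*, the water channel of their endfeet, had 48.0 and 4.16. The exceptions were *Clu*, the most abundant by its mean, with 223 and 673, and *Vim*, with 121 and 221. Of the 10, 5 were at least 2-fold lower and 2 higher on the TPM scale, against 3.21% and 20.7% of all genes tested. As deposited, the list summed to 1855 FPKM in CTRL and 1248 FPKM in IR12, a direction that turns on the TPM scale, with 1323 and 1394. Of 5 astrocyte markers, *Gfap*, also on the list of retinal stress, was higher, with 2.95 and 21.9, and *S100b* and *Gja1* were lower. *Gja1*, the most abundant by its mean, had 40.7 and 6.63, *Pax2* was listed at 0 in CTRL and *Aldh1l1* was under FPKM 1 in both, and the sum was 69.5 in CTRL and 34.4 in IR12.

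Endothelium markers, of the cells that make Edn1 and carry the B receptor, lay mostly between the limits. Of 9 matched, 8 were tested, 1 was at least 2-fold higher and 0 lower, with a median log2 ratio of 0.31, and none was at 0. The counts of this and the following lists stand against 6.56% higher and 6.12% lower over all genes tested. On the TPM scale these shares were 20.7% and 3.21%. *Flt1*, a receptor of vascular growth factor, had 12.3 FPKM in CTRL and 32.3 FPKM in IR12. *Kdr*, the most abundant marker, had 108 and 66.8. The summed FPKM, most of it *Kdr*, was 137 in CTRL and 120 in IR12, which on the TPM scale was 97.6 and 134. By FPKM as deposited 6 of the 9 were higher in IR12 and 3 lower, so the lower sum follows *Kdr*. *Cdh5*, the cadherin of endothelial junctions, had 0.883 and 1.63. Of 9 mural cell markers, of the pericytes and smooth muscle that carry the A receptor, 7 were tested, *Des* was at least 2-fold higher and *Rgs5* at least 2-fold lower, which *Rgs5* was not on the TPM scale, and none was at 0. *Des* reached the minimum FPKM through IR12 alone, and by FPKM as deposited 7 of the 9 were lower in IR12. Without the added 1, the tested markers *Acta2* and *Abcc9* were 2.59 and 2.23 times as high in CTRL, and *Rgs5* 2.19 times. The median log2 ratio of the 7 tested was -0.35, and 0.11 on the TPM scale. *Rgs5*, a pericyte marker and the most abundant of the list, had 38.6 and 17.6, and the sum was 54.8 in CTRL and 29.7 in IR12, while *Ednra* was 1.51 times as high in IR12 as deposited. Of 8 photoreceptor markers, 0 were past 2-fold in either direction (1 on the TPM scale, *Sag*). Their median log2 ratio was -0.12, and 0.51 on the TPM scale. Their sum was 9862 in CTRL and 11351 in IR12, with *Gnat1* the most abundant by its mean. By FPKM 6 of the 8 were lower in IR12, and *Sag*, rod arrestin, had 2482 and 4703. Of 10 leukocyte markers, 6 were at least 2-fold higher and 0 lower, and 5 of the 6 reached the minimum FPKM through IR12 alone. *Lyz2*, the most abundant, had 9.73 and 76.9, and the sum was 21.8 in CTRL and 138 in IR12. *S100a8*, a neutrophil marker, was at 0 in CTRL. The part of these cell types, and of the lens transcripts in CTRL, in the values of *Ednrb*, *Ednra* and *Edn2* was not tested.

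The genes whose 2 values lay nearest to those of a member were found by Euclidean distance in log2(FPKM + 1) over the 2 libraries. They were named for *Edn2*, the member with the largest log2 ratio as deposited, and for *Ece1*, the most abundant one. On the TPM scale the log2 ratio of *Ednrb*, 1.97, was above that of *Edn2*, 1.68. Nearest to *Edn2* were AABR07036376.1, AABR07049892.1 and *Hmga2*, all listed at 0 in CTRL, with FPKM of 2.01, 1.92 and 1.89 in IR12. Nearest to *Ece1* were *Commd10*, *Cog6* and *Tdg*, at distances between 0.0146 and 0.0271. For *Ednrb*, added after its values were seen, they were *Ripk1*, a kinase of cell death signalling, with 7.94 in CTRL and 21.8 in IR12, *Ano6* and *Zfp516*, at distances between 0.0406 and 0.0860. A likeness over 2 libraries rests on 2 values per gene.

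**Figure D5:**
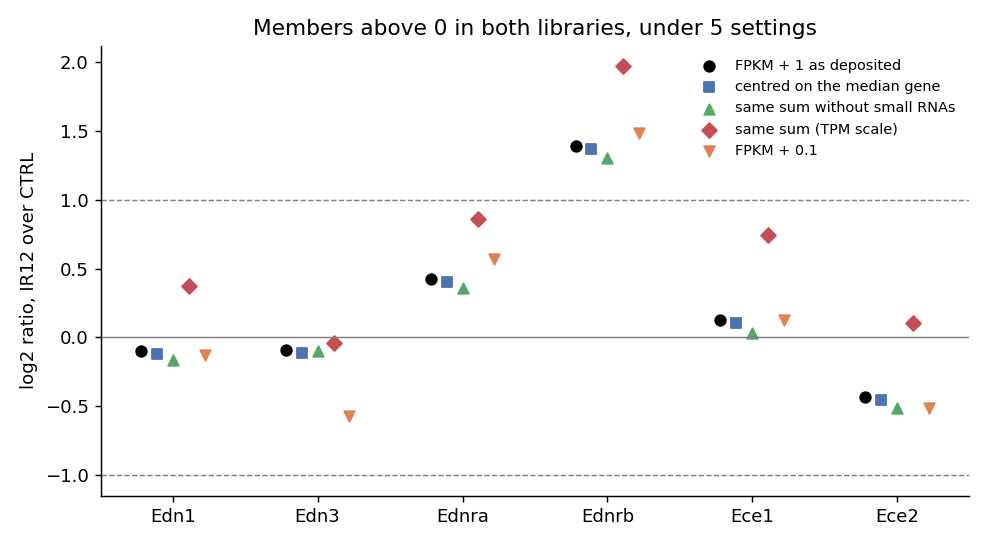
Log2 ratios, IR12 over CTRL, of the 6 genes above 0 in both libraries under 5 settings (marker shapes: FPKM + 1 as deposited, centred on the median gene, equal sums without small RNAs, the TPM scale and FPKM + 0.1), with dashed lines at 2-fold. *Ednrb* is above the upper line in each setting, from 1.30 to 1.97, *Edn1* and *Ece2* change sign on the TPM scale, and genes other than *Ednrb* stay between the lines, though *Edn3* was at -1.36 without a pseudocount, which is not drawn.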

How the data were processed

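Gene expression was measured in 2 libraries of rat retina, CTRL and IR12, each assigned by its sample type label. The authors deposited FPKM per gene, 1 column per library. The submitters' processing notes name STAR 2.5.2b, Cuffdiff 2.2.0 and rn6 without a role; the annotation used for FPKM and its denominator are not given in the sources used here. The library kit is named as a stranded total RNA kit in one source and a stranded mRNA kit in another. Gene starts are 0-based in the file, so 1 was added.

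FPKM was used as deposited, with a pseudocount of 1, a minimum FPKM of 1 in at least 1 library for tested genes and 2-fold as the limit. Without replicates no p-value was computed. Where several rows share a symbol, the row with the highest mean was used. FPKM sums to 1402320 in CTRL and 895200 in IR12, of which small non-coding RNAs, recognised by symbol, take 68.0% and 46.5%, so the TPM scale was an alternative. Other alternatives were a pseudocount of 0.1, centring, the sum without small RNAs and a minimum FPKM of 5 or none. Of the listed symbols, *Itpr2*, *Ace*, *Nos2*, *Kng1*, *Serpina3n*, *Pecam1*, *Prph2* and *Hbb-b1* were not matched and not used here, and *Grk2* was matched by its older symbol *Adrbk1*. Of the photoreceptor markers, 1 is not reported here and was left out of the list. Named were the 7 members, the genes of the lists, the 3 genes nearest to 2 members and, after their values were seen, *Polr2h*, *Hivep3* and the genes nearest to *Ednrb*. The members and lists were chosen with earlier results of these data known. The depth step was chosen after seeing the data. The procedure was tested on simulated data with large changes planted in genes that were not low, and with little noise. This checks the code, and not the calls made here or those of low genes. Python 3.11.15, numpy 2.4.6, pandas 2.3.3 and matplotlib 3.10.9 were used.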

Additional observations from a re-analysis of the deposited data

How the results depend on the processing

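Of 140 alternative values for 33 results, 119 kept their direction and their side of the 2-fold limit, or stayed within 1.5 times for counts, shares and ratios. The causes of the others were not tested, except where the construction shows them. Some of the 119 could hardly move, so their number does not measure robustness. Without a minimum the counts past the limit had to stay, since 2-fold on FPKM + 1 needs an FPKM of at least 1. Centring shifted each log2 ratio by only 0.02. *Ednrb* was at least 2-fold higher in each setting run. The TPM scale, which shifts every ratio by 0.65 (log2) toward IR12 ahead of the pseudocount, reversed *Edn1* to 0.38 and *Ece2* to 0.10. It reversed the medians of mural cell markers to 0.11, photoreceptor markers to 0.51 and ganglion cell markers to 0.46, and moved that of Müller glia markers to -0.84 and of blood markers to 1.58. On this scale 2817 of all genes tested (20.7%) were at least 2-fold higher and 436 (3.21%) lower, in place of 892 (6.56%) and 832 (6.12%). The pathway lists are the furin-type proteases, neprilysin relatives, receptor signalling, *Edn1* factors, other vasoactive systems and retinal stress response. Of their 55 tested genes, 22 were higher and 1 lower on this scale, in place of 10 and 3. The retinal stress list, chosen with a rise already known, held 9 of the 22 and 8 of the 10. With a minimum FPKM of 5, which leaves 3 members, 1 member was at least 2-fold higher, 1 pathway gene was lower, and the mural cell value was -1.09, that of *Rgs5* alone. Without a minimum, the astrocyte median was -0.0297 and the blood median reversed to -0.0264, since genes under FPKM 1 enter. A pseudocount of 0.1 gave a blood median of 1.05. Without a pseudocount, an alternative chosen after seeing the data, *Edn3* had a log2 ratio of -1.36, from values near the lowest step of the table. A pseudocount of 1 inside the ligand shares gave *Edn2* 16.1% and *Edn3* 17.9% in CTRL, and *Edn3* 13.3% in IR12, by construction. No replicate could be left out and no paired analysis was possible because each condition has 1 library.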

Other observations

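Other vasoactive systems were described by 1 list. Of 25 genes of the angiotensin, adrenomedullin, natriuretic peptide, nitric oxide and kinin systems with *Ptgs2*, 22 were matched and 9 were tested, of which 1 was at least 2-fold higher in IR12 and 1 at least 2-fold lower, where the shares over all genes tested were 6.56% and 6.12%. *Bdkrb2*, the B2 receptor of bradykinin, had 0.0175 FPKM in CTRL and 1.77 FPKM in IR12, so it reached the minimum through IR12 alone. *Npr3*, the clearance receptor of natriuretic peptides, had 4.05 FPKM in CTRL and 1.49 FPKM in IR12, a log2 ratio of -1.02. On the TPM scale 2 were higher, *Bdkrb2* and *Ptgs2*, and 0 lower, where 20.7% of all genes tested were higher and 3.21% lower. *Agt*, which encodes angiotensinogen, had 3.90 and 1.69, and *Ptgs2*, the inducible cyclooxygenase, had 2.89 and 6.17. *Nos3*, the nitric oxide synthase of endothelium, was under FPKM 1 in both libraries, with 0.526 and 0.946. *Adm*, which encodes adrenomedullin, a dilator peptide known to respond to hypoxia, had 0.0548 in CTRL and 0.192 in IR12.

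Of the remaining cell type markers, 1 of 7 tested ganglion cell markers was at least 2-fold lower (0 on the TPM scale), *Pou4f2*, with 3.41 FPKM in CTRL and 1.06 FPKM in IR12, and their summed FPKM was 331 in CTRL and 269 in IR12, a direction that turns on the TPM scale, with 236 and 300.2. Of 5 tested pigment epithelium markers, *Rpe65* was at least 2-fold lower, with 11.1 and 4.88, while on the TPM scale 0 were lower and *Ttr* and *Rgr* were higher, and the sum was 100.5 in CTRL and 126 in IR12. Of 2 tested blood markers, *Hba-a2* was at least 2-fold higher (2 on the TPM scale). Led by *Hbb*, blood markers summed to 28.4 FPKM in CTRL and 52.7 in IR12. Over all genes tested, 6.56% were higher and 6.12% lower as deposited, and 20.7% and 3.21% on the TPM scale.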
